A study of Mus musculus with 45 samples.

Results

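The 4 AMPA receptor subunit genes (Gria1, Gria2, Gria3 and Gria4) and the 6 genes of transmembrane AMPA receptor regulatory proteins, or TARPs (Cacng2, Cacng3, Cacng4, Cacng5, Cacng7 and Cacng8), were taken by name from RNA sequencing data of adult mouse brain. All 10 were found among the 18135 genes of the deposited table, and all 10 had a mean of at least 10, the lowest allowed, in every comparison. The study compared WT mice with Shank3-HT mice, heterozygous for a Shank3 mutant allele, and Shank3-HM mice, which carry no intact copy and which the labels call knock-out. Shank3 is a scaffold protein of excitatory postsynaptic sites, and the study's methods describe mutant mice that lack several exons of Shank3. Prefrontal cortex (cortex hereafter), hippocampus and striatum were sequenced from male C57BL/6J mice of 13 weeks, and each of the 9 combinations of genotype and region had 5 samples, which makes 45. The labels do not say that samples of the same number came from the same mouse, nor that the samples of a group came from separate mice, while the paper gives mice as the unit. The p values therefore measure the spread between these samples.

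AMPA receptors are tetramers of the subunits GluA1 to GluA4, which Gria1 to Gria4 encode, and they carry most of the fast excitatory current at synapses of the forebrain. Gria2 transcripts are edited at a codon of the pore loop, and receptors with the edited subunit pass little calcium. TARPs are membrane proteins that bind the receptor, bring it to the surface, slow its closing and, in the type I TARPs (Cacng2, Cacng3, Cacng4 and Cacng8), anchor it to scaffolds such as PSD-95 through the end of the protein. Cacng5 and Cacng7 encode type II TARPs, which alter the receptor's current but are less able to bring it to the surface. Shank3 sits in the same postsynaptic density, further from the membrane.

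Values are normalized counts, and differences are given as log2(normalized count + 1), with standard errors (SE) and 95% intervals from limma. A difference was called when its p value, adjusted by the Benjamini-Hochberg method over all genes tested, was under 0.05. The depth of the samples is unknown, because their totals of 26118607 to 29568983 were set by the authors' normalization. Shank3 itself followed the labels, with every Shank3-HM sample below every Shank3-HT sample and every Shank3-HT sample below every WT sample in all 3 regions. Even so, limma did not call Shank3 in Shank3-HT against WT cortex (-0.38, adjusted p = 0.288). It only just called it in the striatum (-0.50, adjusted p = 0.0494). The paper lists Shank3 as downregulated in both mutants in every region. The test can therefore miss differences of this size. Each region stood apart by the markers of its principal neurons, with 1 exception that touches the results here. The library labelled as cortex, Shank3-HM, replicate 2 lay 19.1% of the way from the WT cortex to the WT striatum by the median of 10 markers of striatal spiny projection neurons (such as Drd1, Drd2 and Adora2a), whereas the other 14 cortical samples lay within 1% of the WT cortex. Cortical differences between genotypes and correlations that rest on this sample are given with and without it. Region differences of Shank3-HM mice and interactions with the cortex include it. In bulk tissue, fewer cells of a type and less RNA per cell cannot be told apart.

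The subunits are built alike around the pore, and the stretch of coding sequence that holds the edited codon of Gria2 is shown for all 4, because it is the base of their different calcium passage. The sequences are from GENCODE M21 transcripts on GRCm38, 5′ to 3′ on the coding strand, and capitals mark the codon at the position that is edited in Gria2. All 4 stretches lie within coding exon 11 of the transcript used, in Gria1 at chr11:57243073-57243117 (+), in Gria2 at chr3:80706890-80706934 (-), in Gria3 at chrX:41610244-41610288 (+) and in Gria4 at chr9:4464116-4464160 (-).
Gria1: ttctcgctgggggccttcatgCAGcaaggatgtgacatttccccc
Gria2: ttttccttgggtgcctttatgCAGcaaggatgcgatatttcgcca
Gria3: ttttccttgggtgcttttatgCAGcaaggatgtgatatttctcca
Gria4: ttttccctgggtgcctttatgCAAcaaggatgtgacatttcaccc
Gria2 and Gria3 differed at 3 of these 45 bases, and Gria1 differed from Gria2 and from Gria3 at 9. The codon shown is the genomic one, and editing itself cannot be read from normalized counts per gene.

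The TARPs are set apart by their ends, which are shown because type I TARPs anchor through them and those of the type II TARPs differ. Binding was not measured. These are the last 30 coding bases before the stop codon, from the same source, with the last 4 codons in capitals. They lie in the last coding exon, in Cacng2 at chr15:77995152-77995181 (-), in Cacng3 at chr7:122768814-122768843 (+), in Cacng4 at chr11:107734783-107734812 (-), in Cacng8 at chr7:3415573-3415602 (+), in Cacng5 at chr11:107877355-107877384 (-) and in Cacng7 at chr7:3366916-3366945 (+).
Cacng2: aacacagccaaccgccggACCACGCCCGTA
Cacng3: aatccggccaacagacgtACCACGCCTGTC
Cacng4: agcatgctgaaccggcggACGACTCCCGTG
Cacng8: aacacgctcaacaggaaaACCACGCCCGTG
Cacng5: gactatgaccagatgtcaTCATCTCCCTGC
Cacng7: gaccatctccacatctccACTTCGCCGTGC
Over the 12 bases in capitals, the 4 type I genes differed from each other at 1 to 4 positions and from the 2 type II genes at 5 to 7, and Cacng5 differed from Cacng7 at 4. The genes also form neighbouring pairs in the genome that cross this division. Cacng4 (chromosome 11, 107732357 to 107794557) and Cacng5 (chromosome 11, 107874605 to 107915055) lie 80.0 kb apart, and Cacng7 (chromosome 7, 3332955 to 3368221) and Cacng8 (chromosome 7, 3390683 to 3415648) lie 22.5 kb apart. Cacng2 (chromosome 15, 77991748 to 78120028) is on the chromosome of Shank3, 11.4 Mb from it.

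The regions differed far more than the genotypes for these genes. Between WT regions, 8 of the 10 genes were called in the striatum against the cortex (4 higher and 4 lower), where 59.3% of the 16708 genes tested were called. All 10 were called in the hippocampus against the cortex (4 higher and 6 lower), where 46.6% of genes were called, and 8 in the striatum against the hippocampus (4 higher and 4 lower), where 56.1% were. Calls of at least 2-fold were fewer, with 1, 6 and 3 of the 10 genes beside 17.4%, 11.1% and 16.2% of all genes. The median size of the difference over the 10 genes was 0.72, 1.12 and 0.56, against 0.33, 0.25 and 0.31 over all genes. The samples of the regions did not overlap in 9, 9 and 6 of the 10 genes, as for 46.3%, 32% and 38.5% of all genes. The 3 comparisons share their WT groups and are therefore not independent of each other.

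**Figure D1:**
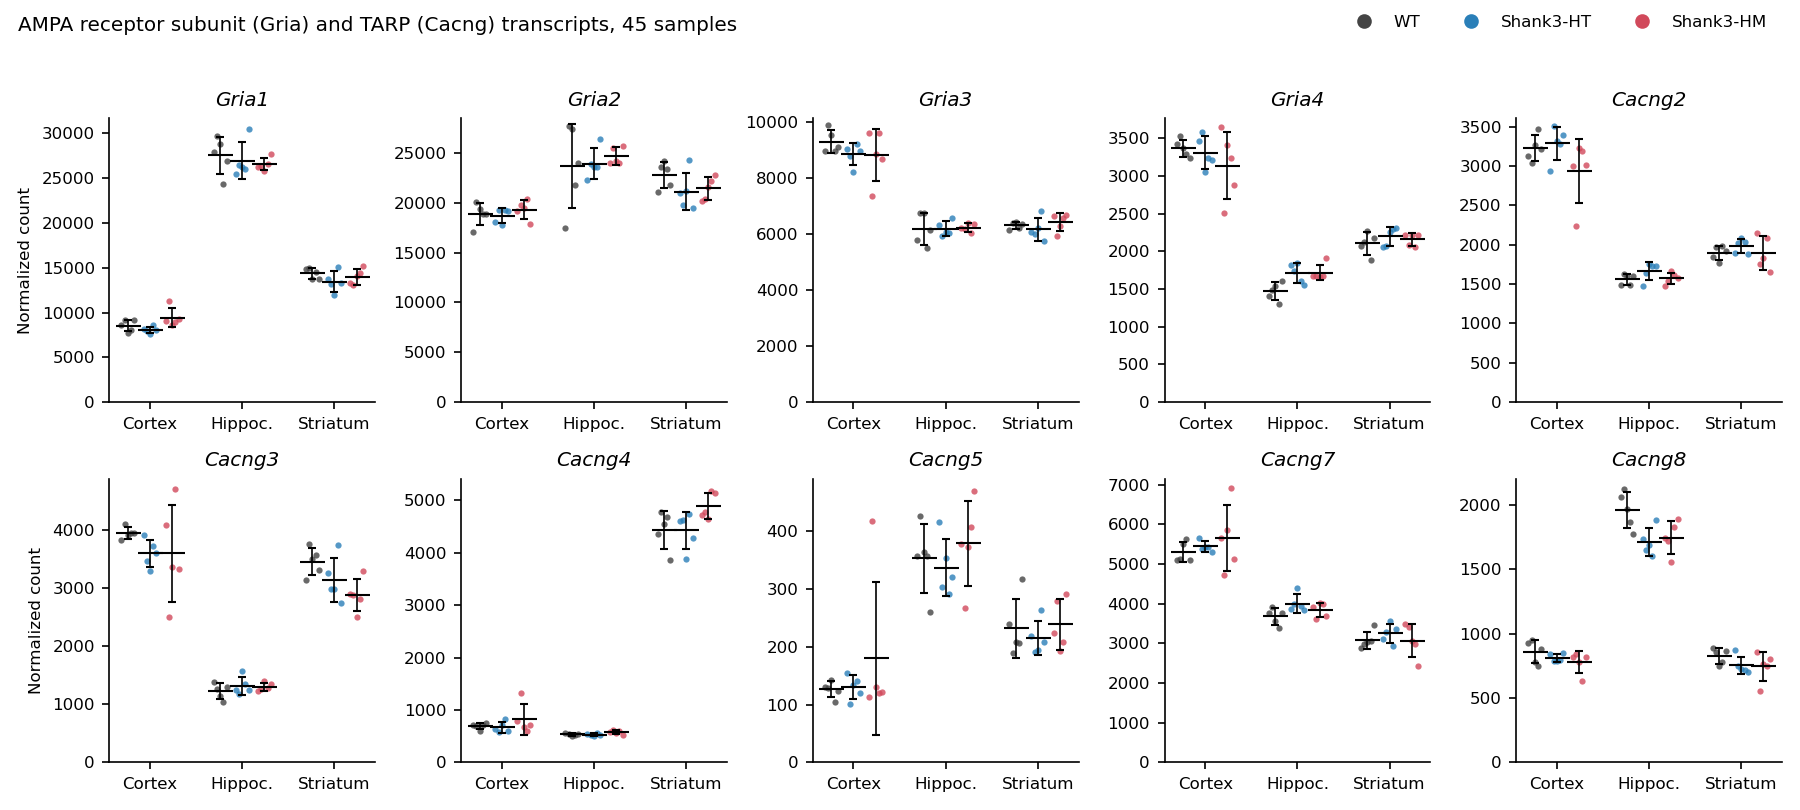
Normalized counts (y axis, linear, from 0) of the 10 genes in each of the 45 samples, by region (x axis) and genotype (colour). Points are samples, and bars are the mean and SD of 5 samples. Cacng4 stands out in the striatum, Gria1, Cacng5 and Cacng8 in the hippocampus, and the single cortical Shank3-HM sample with high Cacng4 and Cacng5 is sample 2.

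Cacng4, a type I TARP that is abundant in the embryonic brain, was the gene that differed most. Its normalized counts in the 5 WT striata were 4364, 4770.0, 4550, 4673 and 3855. In the 5 WT cortices they were 719, 689, 607, 711 and 758, and in the 5 WT hippocampi 571, 550.5, 499.6, 523 and 535. Every striatal sample was thus far above every cortical and hippocampal one. The difference was 2.67 (SE 0.11; 6.37-fold, adjusted p = 4.85e-23) from the cortex and 3.05 (SE 0.11; 8.27-fold, adjusted p = 1.21e-25) from the hippocampus. A difference of this size from the cortex was reached by 3.67% of all genes. Its hippocampal level was lower than its cortical level by a small amount (-0.38, SE 0.11, adjusted p = 0.00474).

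Cacng5, the gene next to Cacng4, followed a different order. It was highest in the hippocampus (352 ± 59.6, SD, n = 5), lower in the striatum (232 ± 50.8) and lowest in the cortex (126 ± 13.9). The hippocampus was 1.46 above the cortex (SE 0.21, adjusted p = 1.72e-07) and the striatum 0.86 above it (SE 0.21, adjusted p = 0.00057). The striatum was 0.61 below the hippocampus on this scale (adjusted p = 0.0132), although the single samples of these regions overlapped. Cacng5 also had the widest spread of the 10 genes in the WT striatum, with a coefficient of variation of 21.9%.

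Cacng8, a TARP known for its role in hippocampal pyramidal neurons, was at 2064, 2126, 1968, 1865 and 1777 in the 5 WT hippocampi. It was at 858 ± 89.3 in the cortex and 828 ± 61.9 in the striatum (SD, n = 5 each). All hippocampal samples were above all others, by 1.19 (SE 0.08, adjusted p = 1.43e-15) from the cortex and 1.24 from the striatum (adjusted p = 1.49e-16). Cortex and striatum could not be told apart (difference -0.05, 95% interval -0.22 to 0.12, adjusted p = 0.647). Its neighbour Cacng7, a type II TARP, was instead highest in the cortex (5289 ± 253), lower in the hippocampus (3678 ± 207) and lowest in the striatum (3075 ± 220.3). All 3 steps of this order were called, and the smallest was that from hippocampus to striatum (-0.26, SE 0.07, adjusted p = 0.00306).

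Cacng2, which encodes stargazin, the founding TARP, was highest in the cortex (3222 ± 165), followed by the striatum (1897 ± 90.1) and the hippocampus (1560.0 ± 68.1). The striatum was 0.76 below the cortex (SE 0.07, adjusted p = 1.66e-12), and the hippocampus 1.05 below it (adjusted p = 3.19e-16). Cacng3, the closest relative of Cacng2 among the TARPs, was at 3946 ± 98.7 in the cortex, 3453 ± 236 in the striatum and 1228 ± 132 in the hippocampus. The hippocampus was therefore 1.69 below the cortex (SE 0.10, adjusted p = 3.22e-18). Between striatum and cortex, the Cacng3 difference was -0.19 (SE 0.10) and not called (adjusted p = 0.0894), although the 5 striatal samples (3144 to 3750) were all below the 5 cortical samples (3824 to 4098). It was called in a fit of the WT samples alone (adjusted p = 0.00363) and with Shank3-HM in place of WT mice (adjusted p = 0.0102).

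Among the subunits, Gria1, whose product is needed for long-term potentiation in the hippocampus, differed most. It was at 27977, 29691, 28836, 24348 and 26961 in the WT hippocampi. In the WT striatum it was at 14380.0 ± 587, and in the WT cortex at 8550.4 ± 627 (SD, n = 5 each). The groups did not overlap, and hippocampus exceeded cortex by 1.69 (SE 0.06; 3.22-fold, adjusted p = 8.56e-25) and striatum exceeded cortex by 0.75 (SE 0.06; 1.68-fold, adjusted p = 8.04e-14). Gria2, the subunit that limits calcium passage, was more even, with a mean of 18860 ± 1100 for cortex, 23687 ± 4239 for hippocampus and 22802 ± 1297 for striatum. The striatum exceeded the cortex by 0.27 (SE 0.07, adjusted p = 0.00156) and the hippocampus exceeded it by 0.31 (adjusted p = 0.00056). Hippocampus and striatum did not differ beyond their spread in Gria2 (-0.04, 95% interval -0.19 to 0.11). The WT hippocampi were at 17500, 27723, 27380, 21802 and 24031 for Gria2, and sample 1 was the lowest of all hippocampal samples and overlapped with the cortex.

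Gria3 and Gria4 were highest in the cortex. Gria3, whose gene is on the X chromosome, was at 9304 ± 414 in the cortex and lower in both other regions, with 6199 ± 571 for hippocampus and 6314 ± 125 for striatum. It was 0.59 lower in the hippocampus (SE 0.06, adjusted p = 7.46e-12) and 0.56 lower in the striatum (adjusted p = 1.64e-11) than in the cortex, and these regions did not differ from each other (0.03, 95% interval -0.08 to 0.14). Gria4, known for its place in parvalbumin interneurons and in the thalamus, was at 3421, 3524, 3371, 3286 and 3239 in the WT cortices. It was at 2104 ± 147 in the striatum and 1470 ± 118 in the hippocampus, and no sample of a region overlapped with those of another. Gria4 was lower than in the cortex by 0.68 in the striatum (SE 0.07, adjusted p = 2.06e-11) and by 1.20 in the hippocampus (adjusted p = 1.81e-18).

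**Figure D2:**
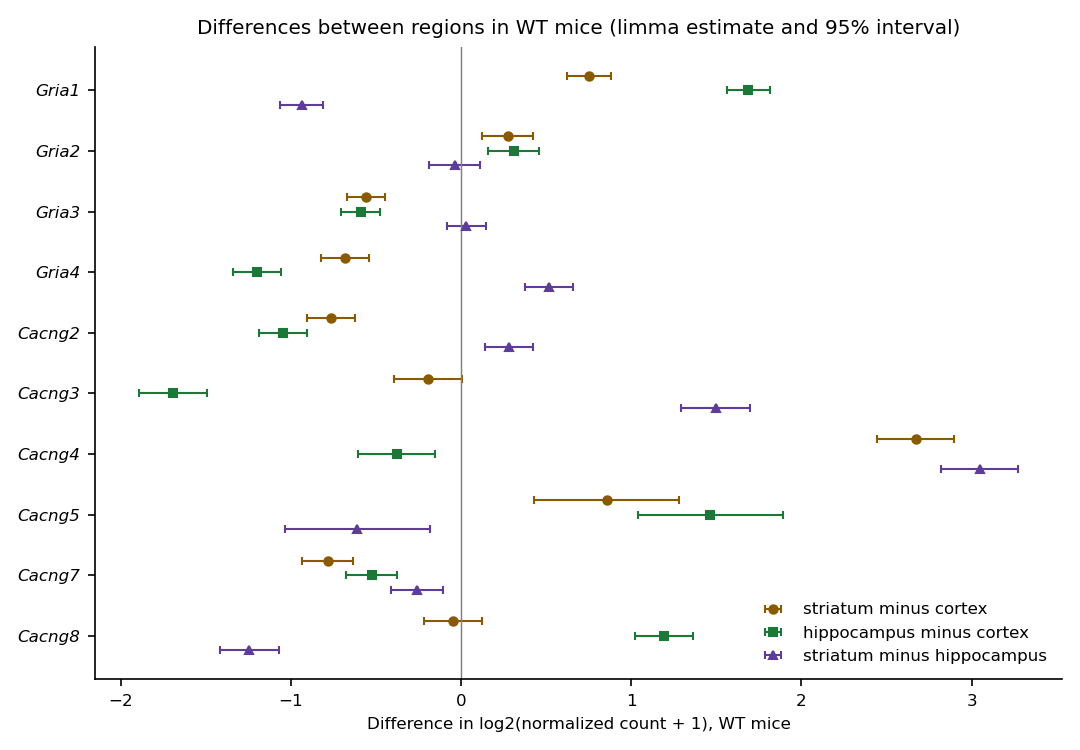
Differences between regions in WT mice for the 10 genes (y axis), in log2(normalized count + 1) (x axis), with the limma estimate as a point and its 95% interval as a bar. Cacng4 lies furthest to the right in both comparisons with the striatum, and the intervals of Gria2 and Gria3 between striatum and hippocampus and of Cacng3 and Cacng8 between striatum and cortex include 0.

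The order of the regions was nearly the same in the mutant mice. Of the 30 differences between regions (10 genes and 3 pairs of regions), 29 had the same sign in mice of all 3 genotypes, and the exception was Gria3 between striatum and hippocampus, which was near 0 in all. The striatal excess of Cacng4 over the cortex was 2.67 in WT mice, 2.72 in Shank3-HT mice and 2.63 in Shank3-HM mice. The last value includes cortical Shank3-HM sample 2, where Cacng4 was at 1327, against 583 to 837 in the other 14 cortical samples. The striatal deficit of Gria2 against the hippocampus, which was not called in WT mice, was called in Shank3-HT mice (-0.18, adjusted p = 0.0361) and in Shank3-HM mice (-0.20, adjusted p = 0.0181). The WT value of -0.04 rested on the low WT hippocampus sample 1, without which Gria2 was at -0.14 (adjusted p = 0.0533). The striatal excess of Gria2 over the cortex was 0.27 with WT mice, 0.17 with Shank3-HT mice and 0.15 with Shank3-HM mice, the last of which was not called (adjusted p = 0.0802). The interaction terms that test these gaps gave no call.

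Levels of different genes can be compared only per length, and the length of the longest annotated transcript was used first. As a share of the sum of the 4 Gria levels per kilobase, Gria1 made up 26.7% ± 1.58 in WT cortex, 57.1% ± 2.89 in WT hippocampus and 40.6% ± 1.60 in WT striatum (SD, n = 5 each). Gria2 made up 31.5% ± 1.19, 26.1% ± 2.99 and 34.4% ± 1.38 in the same order. Gria3 made up 31.0% ± 0.69, 13.7% ± 0.10 and 19.0% ± 0.46, and Gria4 10.7% ± 0.39, 3.11% ± 0.21 and 6.05% ± 0.44. By this length, Gria1, Gria2 and Gria3 were nearly even in the cortex and Gria1 exceeded 50% in the hippocampus, but with coding length cortical Gria2 was at 47.4%, beside 21.0% for Gria1 and 23.3% for Gria3, and hippocampal Gria1 at 46.4%. The shares move with the length used, because the longest Gria2 transcript has 10371 bases and its coding part 2652. The Gria2 share exceeded that of Gria1 in the cortex, and Gria1 that of Gria2 in the hippocampus, under each of the 3 lengths tried, whereas in the striatum the order turned. There, Gria1 led with the longest transcripts and Gria2 with mean transcript lengths (45.8% against 35.0%) and coding lengths (50.5% against 31.0%).

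Among the TARPs, the level per kilobase of longest transcript was highest for Cacng7 in the WT cortex (2391 ± 114) and lowest for Cacng5 in every region (34.0 ± 3.74, 95.1 ± 16.1 and 62.6 ± 13.7 for cortex, hippocampus and striatum). Cacng5 was also the lowest under each other length used. In the striatum, Cacng7 (1390.3 ± 99.6), Cacng4 (1269 ± 103) and Cacng3 (1244 ± 84.9) were at levels per kilobase that overlapped within their spread. In the hippocampus, Cacng7 (1663 ± 93.5) exceeded Cacng8 (1033 ± 75.0) per kilobase, and did so under each other length used. In the cortex and hippocampus, Cacng4 was ninth of the 10 genes by this measure, with 199 ± 16.0 and 153 ± 7.71 per kilobase.

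**Figure D3:**
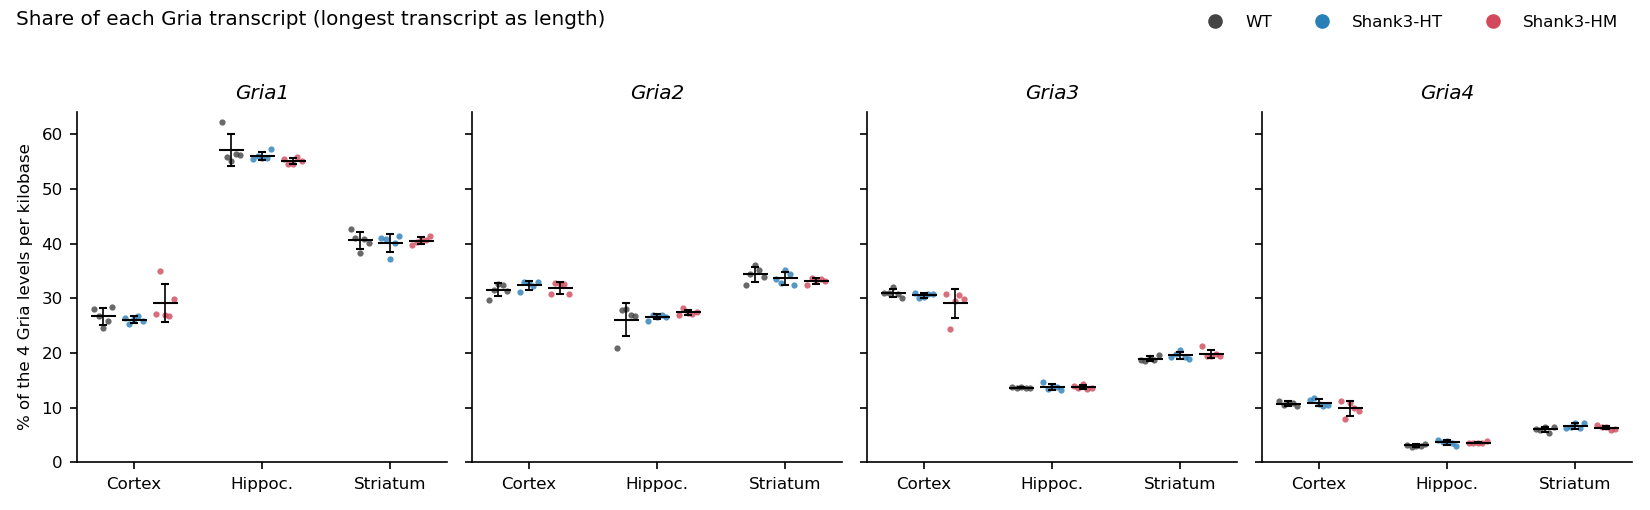
Share of each Gria gene in the sum of the 4 Gria levels per kilobase of longest transcript (y axis, percent, from 0) in each of the 45 samples, by region (x axis) and genotype (colour). Points are samples, and bars are the mean and SD of 5. The Gria1 share separates the 3 regions, with 26.7%, 57.1% and 40.6% in the WT cortex, hippocampus and striatum.

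No gene of the 10 was called between genotypes. In each of the 9 comparisons of genotypes within a region (Shank3-HT with WT, Shank3-HM with WT and Shank3-HM with Shank3-HT), 0 of the 10 genes passed limma's threshold. Few genes of the whole table did so either, and Shank3 itself did not in Shank3-HT against WT cortex. The shares called, in the order just given, were 0%, 0.0121% and 0.00606% of 16507 cortical genes, 0.00603% of 16571 hippocampal genes in each comparison, and 0.00607%, 0.182% and 0.14% of 16482 striatal genes. At an unadjusted p value under 0.05, 9 of the 90 values of the 10 genes passed, of which 5 were in the hippocampus, 3 in the striatum and 1 in the cortex. The shares of all genes under this limit were, in the same order of comparisons, 2.68%, 5.49% and 4.87% of cortical genes, 5.26%, 4.73% and 2.09% of hippocampal genes, and 7.43%, 7.43% and 6.49% of striatal genes. The differences ran from -0.27 (Cacng3, Shank3-HM against WT in the striatum) to 0.30 (Cacng5, Shank3-HM against WT in the cortex). In 85 of the 90 comparisons, the 95% interval lay within 0.5 of 0 on the log2 scale, and the other 5 were all of Cacng4 and Cacng5 in the cortex. Without cortical Shank3-HM sample 2, the SE of Shank3-HM against WT cortex went from 0.27 to 0.13 for Cacng5 and from 0.16 to 0.10 for Cacng4. The comparisons within a region share their samples, the WT samples among them.

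**Figure D4:**
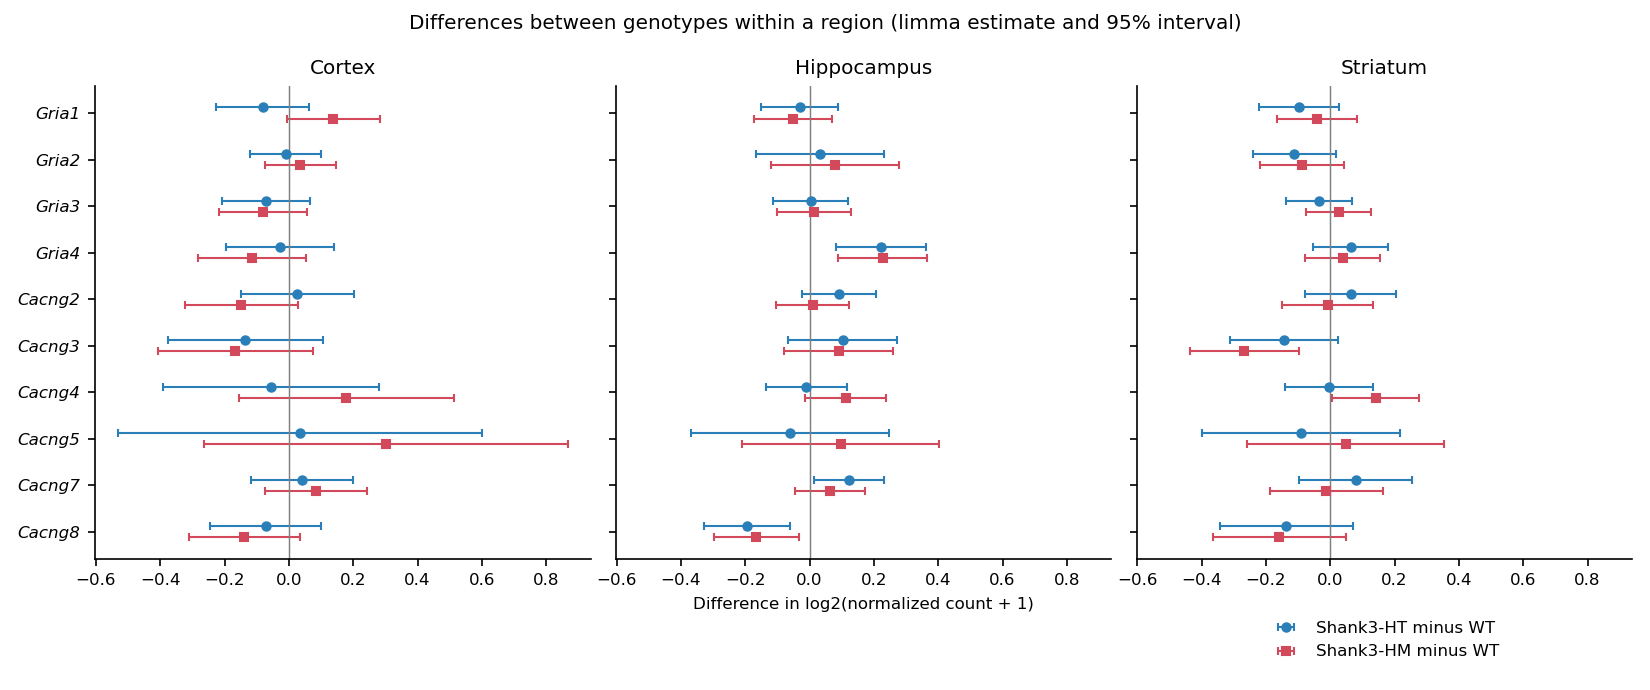
Differences of Shank3-HT and Shank3-HM from WT mice in each region, in log2(normalized count + 1) (x axis), for the 10 genes (y axis), with limma estimates as points and 95% intervals as bars. No gene was called, and the intervals that lie clear of 0 are those of hippocampal Gria4 and Cacng8 in both mutants, hippocampal Cacng7 in Shank3-HT mice and striatal Cacng3 and Cacng4 in Shank3-HM mice.

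In the hippocampus, the differences of Gria4 and Cacng8 had the smallest p values. Gria4 was at 1413, 1489, 1546, 1300.2 and 1602 in the WT hippocampi. It was at 1825, 1739, 1851, 1607 and 1548 in Shank3-HT mice and at 1673, 1677, 1663, 1674 and 1906 in Shank3-HM mice. All 5 Shank3-HM samples were above all 5 WT samples, as for 0.471% of all genes in that direction, and the Shank3-HT samples overlapped with WT. The differences were 0.22 in Shank3-HT (95% interval 0.08 to 0.36, adjusted p = 0.865 in limma) and 0.23 in Shank3-HM mice (0.09 to 0.37, adjusted p = 0.92), and both passed the unadjusted limit. A two-sided exact permutation test over the 5 and 5 samples gave p = 0.00794 for the Shank3-HM difference. This is the smallest it can give, follows from the lack of overlap alone and was not used for calls. With each sample left out in turn, the Shank3-HM difference ranged from 0.18 to 0.26.

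The Gria4 level of the WT hippocampus was 0.436 times that of the WT cortex, and markers of cortical projection neurons varied in the hippocampal samples as well. By the median of the 4 markers with at least 2-fold higher levels in the cortex, the Shank3-HT hippocampi lay 2.98% to 8.89% of the way to the WT cortex, the Shank3-HM hippocampi 0.11% to 5.64% and the WT hippocampi -1.65% to 2.18%. Of all 6 markers of the list, 5 had a higher mean in each mutant than in WT hippocampi. Their summed normalized counts, led by Slc17a7, which hippocampal neurons express too, were 35796 to 38701 in Shank3-HT, 34566 to 36745 in Shank3-HM and 32513 to 40872 in WT hippocampi. No marker of the list was at 0. The sample with the most Gria4 (Shank3-HM sample 5) was also the one with the highest value among Shank3-HM samples by these 4 markers. Shank3-HM sample 4 had the lowest value of its group by these markers (0.11%), and its Gria4 of 1674 was above every WT hippocampus. Shank3-HM sample 5 also had the highest sum of the 7 inhibitory interneuron markers among all 15 hippocampi (18992). These markers summed to 15176 to 18390 in Shank3-HT, 15122 to 18992 in Shank3-HM and 14851 to 17376 in WT hippocampi, with 6 and 5 of 7 means higher than in WT. The part of both lists in the Gria4 difference was not tested.

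Cacng8 was lower in the mutant hippocampus without passing the threshold. Its WT values were 2064, 2126, 1968, 1865 and 1777, as given above. The Shank3-HT values were 1739.7, 1652, 1688, 1601 and 1882, and the Shank3-HM values 1740.5, 1719.9, 1557, 1829.9 and 1889. Every mutant sample was below the WT mean of 1960.0, but both mutant groups overlapped with WT. The differences were -0.19 (95% interval -0.33 to -0.06, adjusted p = 0.926 in limma) and -0.17 (-0.30 to -0.03, adjusted p = 0.92), and both passed the unadjusted limit. The 10 markers of hippocampal principal neurons summed to 15233 to 17127 in Shank3-HT, 14237 to 16280 in Shank3-HM and 14834 to 18340 in WT hippocampi, with 3 and 2 of 10 means higher than in WT, and the 5 choroid plexus markers had no higher mean in either mutant. The latter summed to 1272 to 33562 in Shank3-HT, 6073 to 60274 in Shank3-HM and 3072 to 122680 in WT hippocampi, where WT sample 4 stood apart. Without that sample, the Cacng8 differences were -0.21 for Shank3-HT and -0.18 for Shank3-HM, and those of Gria4 were 0.18 for both. The astrocyte markers had 6 of 7 means higher than WT in both mutant hippocampi. The microglia and the oligodendrocyte markers each had 2 of 6 means higher in Shank3-HT and 1 of 6 in Shank3-HM hippocampi. The endothelial markers had 2 and 0 of 5 means higher, and the oligodendrocyte precursor markers 3 and 2 of 4. The part of all these markers in the Cacng8 and Gria4 values was not tested. Cacng8 was also below WT in both other regions, with -0.07 and -0.14 in the cortex and -0.14 and -0.16 in the striatum for Shank3-HT and Shank3-HM mice. None of these 4 passed an unadjusted p value of 0.05, and each pair shares its WT samples. Cacng7, next to Cacng8, was at 4002 ± 232 in Shank3-HT and 3678 ± 207 in WT hippocampi (0.12, adjusted p = 0.926 in limma).

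In the striatum, Cacng3 and Cacng4 had the smallest p values. Cacng3 was at 3144, 3750, 3499, 3572 and 3302 in WT mice, and at 2889.7, 2877, 2510.5, 2812 and 3286 in Shank3-HM mice. All 5 Shank3-HM samples were below the WT mean, and the groups overlapped through the highest Shank3-HM sample. The difference was -0.27 (SE 0.08, 95% interval -0.44 to -0.10, adjusted p = 0.339 in limma). The Shank3-HT mean lay between the others at 3139 ± 379. Cacng4, which marked the striatum, was at 4892 ± 245 in Shank3-HM, 4429 ± 347 in Shank3-HT and 4443 ± 362 in WT striata. It was 0.14 above WT (adjusted p = 0.657 in limma) and 0.15 above Shank3-HT mice (adjusted p = 0.742). The lowest WT sample in Cacng4 (3855, sample 5) was also the striatal sample with the most cortical marker signal, 10.6% of the way to the WT cortex by 6 markers.

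Other marker lists moved in the striatal groups as well. The 7 markers of inhibitory interneurons, of which Gad1, Gad2 and Slc32a1 are also expressed by spiny projection neurons, summed to 40711 to 43291 in Shank3-HM and 36493 to 37419 in WT striata, and all 7 had the higher mean in Shank3-HM mice. The 6 oligodendrocyte markers summed to 199865 to 302744 in Shank3-HM and 180167 to 238758 in WT striata, with all 6 means higher. The 10 markers of spiny projection neurons summed to 223228 to 248721 and 189441 to 257471, with 5 means higher and 5 lower. Other lists were lower in Shank3-HM striata. The 10 hippocampal principal neuron markers summed to 4446 to 5100 against 5071 to 5611 in WT striata, with 2 of them lower in all samples, and no mean was higher among the 5 endothelial (4997 to 6080 against 5721 to 6784) and the 4 oligodendrocyte precursor markers (3452 to 4010 against 3503 to 4004). The part of these in the striatal values was not tested.

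In the cortex, the differences of Shank3-HM mice rested on sample 2 for several genes. In this sample Cacng4 was at 1327 and the other 14 cortical samples at 583 to 837, and Gria1 was at 11294 with the others at 7588 to 9281. Cacng2 was at 2232 with the others at 2932 to 3501, and Gria3, Gria4, Cacng3 and Cacng7 were likewise below every other cortical sample. On the way from the WT cortex mean to the WT striatum mean, this sample lay at 16.8% for Cacng4 and 25.6% for Cacng7, beside the 19.1% of the striatal markers. It lay further along for Gria1 (47.1%), Gria3 (65.0%), Gria4 (68.1%) and Cacng2 (74.8%), and beyond the striatum for Cacng3 (294.5%) and Cacng5 (275.0%). The Cacng5 departure was upwards, and its cortical values in Shank3-HM mice were 113, 417, 129, 120.2 and 121. The 417 of sample 2 was above all 15 striatal samples, of which the highest was 317. The list of striatal markers summed to 51473 in this sample and to 5646 to 7747 in the other cortices, and the cortical list to 29351 against 47247 to 54634. The interneuron markers were also higher, at 33021 against 19363 to 21089, as were the hippocampal principal neuron markers, at 2829 against 2267 to 2607. The choroid plexus markers, at 704, were 6.88 times the median of the other cortices and within their range of 53.6 to 1106, and the astrocyte, microglia, oligodendrocyte, oligodendrocyte precursor and endothelial lists also lay within the range of the other cortices.

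Without sample 2, the differences of Shank3-HM from WT cortex shrank in 8 of the 10 genes, and those of Cacng4 and Cacng5 changed sign. For Cacng5, the value went from 0.30 to -0.05 (SE 0.13), and for Cacng4 from 0.18 to -0.01 (SE 0.10). For Gria1 it went from 0.14 to 0.07 (SE 0.05) and for Cacng2 from -0.15 to -0.05 (SE 0.05). Cacng7 and Cacng8 instead moved away from 0, from 0.09 to 0.15 and from -0.14 to -0.17, and neither was called (adjusted p = 0.939 for both). The only cortical value with an unadjusted p value under 0.05 was Gria1 in Shank3-HM against Shank3-HT mice, at 0.22 (adjusted p = 0.959 in limma), where all 5 Shank3-HM samples were above all 5 Shank3-HT samples, as for 0.376% of all genes in that direction. Without sample 2 this value was 0.15. The endothelial markers of Shank3-HM cortices (5042 to 5931) lay wholly below those of Shank3-HT cortices (6268 to 6812), and the astrocyte markers had a lower mean sum (126913 against 141428). Their part in the Gria1 difference was not tested.

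The question whether the mutation acted differently between regions was tested by interaction terms in 1 limma fit of all 45 samples. None of the 10 genes was called in any of the 6 interactions, with Shank3-HM or Shank3-HT mice against WT as the difference within a region. Of all 16708 genes, 0.0539% were called for Shank3-HM between striatum and cortex, 0.0718% for Shank3-HM between striatum and hippocampus, and 0% in the other 4. At an unadjusted p value under 0.05, 4 of the 60 values passed. The shares of all genes were 5.42%, 4.45% and 5.37% for Shank3-HM (striatum against cortex, hippocampus against cortex and striatum against hippocampus) and 3.46%, 3.35% and 5.6% for Shank3-HT. The smallest p value was that of Gria4, whose Shank3-HM difference was 0.34 higher in the hippocampus than in the cortex (SE 0.10, adjusted p = 0.975), and this value was 0.26 to 0.40 when each sample was left out in turn. Its cortical part includes Shank3-HM sample 2, without which the cortical Gria4 difference of Shank3-HM from WT mice went from -0.11 to -0.04. For Cacng3, the Shank3-HM difference was 0.36 lower in the striatum than in the hippocampus (adjusted p = 0.789). The Gria1 value for Shank3-HM between hippocampus and cortex (-0.19, adjusted p = 0.999 in limma) also passed the unadjusted limit. Its cortical part, too, includes Shank3-HM sample 2, without which the cortical Gria1 difference went from 0.14 to 0.07.

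The samples within a group also showed which genes varied together. Over the 45 samples, after subtraction of the 9 group means, the strongest correlation between any pair of the 10 genes was -0.65 for Cacng2 with Cacng5, and the strongest positive one 0.63 for Gria3 with Cacng3. Without the cortical Shank3-HM sample 2, these became -0.35 and 0.47. Cacng4 and Cacng5 had a correlation of 0.53 that became -0.10 without that sample. Gria2 with Gria3 rose from 0.58 to 0.72. The correlation of Cacng7 with Cacng8 was negative with and without the sample (-0.41 and -0.39). These are descriptions of samples that share normalization and groups, and no test was made.

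Among 12473 genes with a mean of at least 100, those that varied most like a subunit were named in the same way. Gria1 varied most like Scn3b, a sodium channel beta subunit, with a correlation of 0.80 over 45 samples, followed by Kctd12 (0.77) and Smarca1 (0.77). Without the cortical Shank3-HM sample 2, these 3 values were 0.79, 0.69 and 0.70, at ranks 1, 10 and 5. Gria2 varied most like Celf2, an RNA-binding protein, with 0.91, followed by Dock4 (0.90) and Braf (0.88), and these values changed by less than 0.01 without the cortical Shank3-HM sample 2. Gria3 varied most like Sgtb (0.82), Cacna2d1 (0.82), a calcium channel subunit, and Pcdhac2 (0.81). Without that sample, these were 0.74, 0.77 and 0.75, which put Sgtb at rank 14, Cacna2d1 at rank 3 and Pcdhac2 at rank 10 among all genes. Gria4 varied most like Pak7 (0.80), Lancl2 (0.75) and Syt1 (0.73), the calcium sensor of transmitter release. Without that sample, these values were 0.72, 0.63 and 0.59, at ranks 2, 7 and 18.

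The genes that act with AMPA receptors were followed in 5 lists with 61 genes, of which 60 were tested. The lists held other auxiliary subunits, assembly and export factors, trafficking and anchoring proteins, kinases, phosphatases and editing enzymes, and kainate and delta receptor subunits. Between WT regions, 23 of the 60 genes were called higher and 26 lower in the striatum than in the cortex, 20 higher and 24 lower in the hippocampus than in the cortex, and 24 higher and 25 lower in the striatum than in the hippocampus. Over all genes, the shares called higher and lower were 30% and 29.3%, 23.3% and 23.3%, and 27.8% and 28.3%. Of the 11 assembly and export factors, 0 were called higher and 8 lower in the striatum than in the cortex, with a median difference of -0.31 against 0.01 over all genes. Of the 12 other auxiliary subunits tested, 6 were higher and 3 lower in that comparison.

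**Figure D5:**
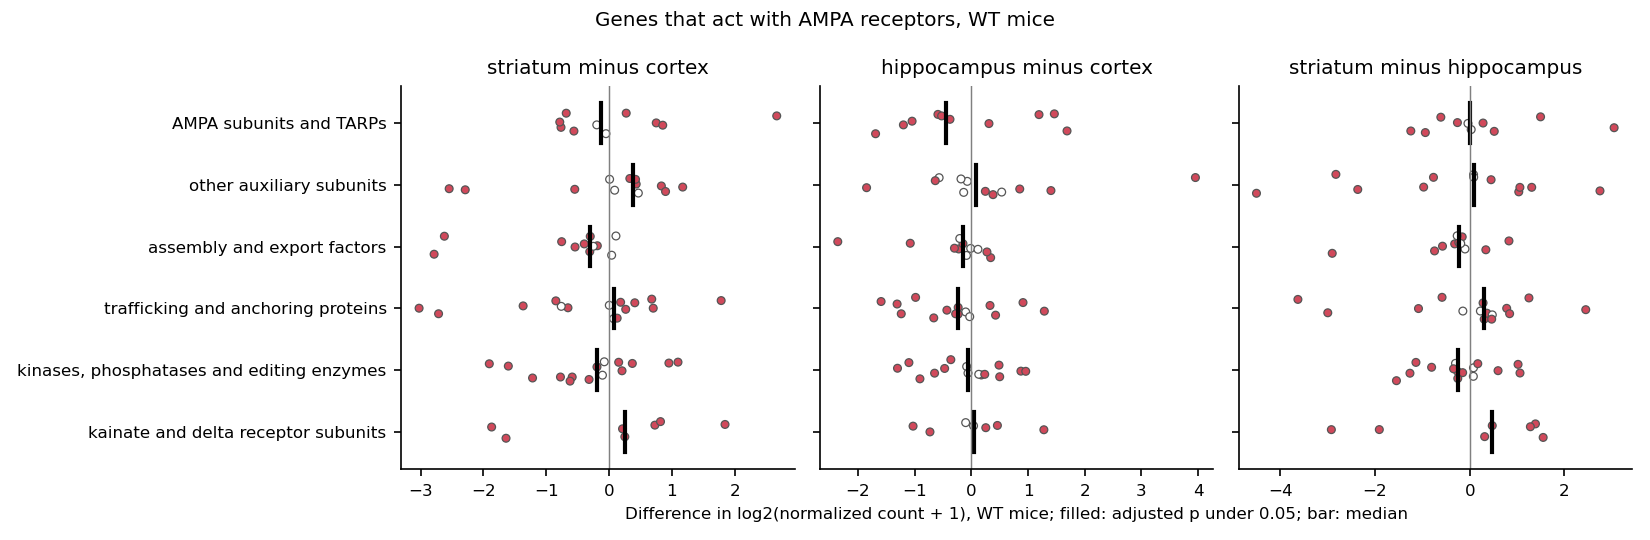
Differences between WT regions, in log2(normalized count + 1) (x axis), for the 10 genes and for the genes of the 5 lists (y axis). Each point is a gene, filled when its adjusted p value was under 0.05, the black bar is the median of the list, and points are spread vertically only for legibility. Shisa6 lies furthest from 0 in both comparisons with the hippocampus, at 3.95 and -4.50.

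The 5 list genes that differed most in each comparison were as follows. Shisa6, an auxiliary subunit that slows desensitization, was at 5573 ± 783 in the hippocampus, 358 ± 43.2 in the cortex and 255 ± 90.1 in the striatum, so that it was 3.95 above the cortex (SE 0.15) and the striatum 4.50 below the hippocampus (adjusted p = 1.21e-24 and 4.1e-27). Cnih2, a cornichon that exports and slows the receptor, was also higher in the hippocampus than in the cortex (1.40, SE 0.08), while Gsg1l, which dampens the receptor's current, was lower there (-1.85, SE 0.10), as were Olfm2 (-2.36) and Grip2 (-1.59). Of the neuronal pentraxins, which cluster AMPA receptors from outside the cell, Nptxr and Nptx1 were lower in the striatum than in both other regions. Nptxr was at 3598 ± 744 in the striatum and 28908 ± 2285 in the cortex (-3.02, SE 0.11), and Nptx1 at 1777 ± 1196 and 10203 ± 235 (-2.71, SE 0.26). The cortical markers summed to 2152 to 10523 in these WT striata, with the highest sum in sample 5, and their part in these values was not tested. Olfm1 (-2.78), Olfm2 (-2.62) and Cnih3 (-2.54) were lower in the striatum than in the cortex as well. Against the hippocampus, Nptx1 (-3.62), Nptxr (-2.99), the kainate receptor subunit Grik4 (-2.92) and Olfm1 (-2.90) were lower in the striatum.

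The genotype called 1 of the 60 tested genes of these lists, and only in the striatum. There, 0.182% of all genes were called in Shank3-HM against WT and 0.14% in Shank3-HM against Shank3-HT mice. Both shares were above those of every genotype comparison in the cortex and hippocampus. Nptx2, the pentraxin that neuronal activity induces, was at 492, 525, 537, 598 and 742 in WT striata and at 604, 509, 539, 673 and 477 in Shank3-HT striata. It was at 1157, 873, 836, 884 and 1088 in Shank3-HM striata, where every sample was above every sample of the other genotypes, as for 1.1% of all genes against WT and 0.746% against Shank3-HT. The difference was 0.74 from WT (SE 0.12; 1.67-fold, adjusted p = 0.0142) and 0.79 from Shank3-HT mice (SE 0.12; 1.72-fold, adjusted p = 0.014), and the latter call was lost without Shank3-HT striatum sample 5 (adjusted p = 0.0607). In that sample the 5 choroid plexus markers summed to 68145, against 447 to 1535 in the other 14 striatal samples. As given above, the interneuron markers of Shank3-HM and WT striata did not overlap either. The Shank3-HM striata with the most Nptx2, samples 1 and 5, also had the highest cortical marker sums of that group (8156 and 5094), and WT sample 5, with the most Nptx2 of the WT striata, had a sum of 10523. In Shank3-HT striata the highest sum (8370, sample 3) came with a Nptx2 value of 539, and the highest Nptx2 value (673, sample 4) with a sum of 3461. The part of these markers in the Nptx2 values was not tested. In the cortex, Nptx2 was at 973 ± 157 in Shank3-HM and 1044 ± 199.8 in WT mice (-0.10, adjusted p = 0.931), and in the hippocampus at 374 ± 21.2 and 419.9 ± 72.8 (-0.15, adjusted p = 0.92). The Shank3-HM difference of Nptx2 was higher in the striatum than in the cortex by 0.84 (SE 0.17, adjusted p = 0.0406) and than in the hippocampus by 0.89 (SE 0.17, adjusted p = 0.0226). The first lost its call under quantile normalization and when any 1 of 11 samples was left out (adjusted p up to 0.114), and the second when any 1 of 8 samples was left out (adjusted p up to 0.07). Between WT regions, the striatum was 0.85 below the cortex in Nptx2 and 0.46 above the hippocampus (adjusted p = 0.00145). No other gene of the lists was called in a comparison of genotypes, and at an unadjusted p value under 0.05 between 1 and 11 of the 60 genes passed per comparison, the most in Shank3-HM against WT hippocampus, where 4.73% of all genes did. Of those 11 genes, 4 were among the 7 kainate and delta receptor genes, the most of the 5 lists. The median difference of these 7 genes was 0.009, against 0.004 over all genes, and none of them was called.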

How the data were processed

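Poly(A)-selected, strand-specific RNA libraries of 45 samples were sequenced by the authors. Per the submitters' processing notes and the paper, transcripts were quantified with Salmon 1.1.0 against GRCm38, imported with tximport and normalized with DESeq2 (the notes name version 1.26.0 in R 3.6.2, the paper later versions). The deposited values, treated as a signal, are normalized counts with decimals, scaled by the authors over all 45 samples. Whole reads could not be recovered: with the best step per sample, 13.9% to 41.3% of values lay within 0.05 of whole multiples. Count models were therefore not used. Columns coded KI were taken as the mice the labels call knock-out.

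Values were tested as log2(value + 1) with limma 3.58.1 under R 4.3.3, whose empirical Bayes step used a trend in intensity,, after a filter to a mean of at least 10, with Benjamini-Hochberg adjustment over all genes and a threshold of 0.05. Genotypes were fitted on the 15 samples of a region, regions and interactions on 45 samples as 9 groups. The procedure was tested on simulated data. An exact permutation test over samples was a check. Python 3.11.15, numpy 2.4.6, pandas 2.3.3 and matplotlib 3.10.9 were used. The 10 genes, gene lists and markers were chosen with earlier results of these data known. All 10 genes are named throughout, as are list genes called between genotypes, the 5 list genes with the largest called difference per pair of regions, and for each Gria gene the 3 genes with the highest correlation. Gene positions, transcript lengths and sequences are from GENCODE M21. Place between regions by markers is the median, over markers with at least 2-fold higher WT means in their home region, of the share of the distance between WT means. Sample numbers were not taken to pair samples. Alternatives were the replicate number as a block, quantile normalization, no intensity trend, a pseudocount of 0.1, no filter or a mean of at least 100, only the groups compared, Shank3-HT or Shank3-HM mice for WT between regions, other lengths, and each sample left out in turn. Coding length was added after the data were seen.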

Additional observations from a re-analysis of the deposited data

Results flagged for a closer look

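Of 90 groups of 5 samples (10 genes in 9 groups), 8 held 1 sample whose gap to the nearest of the others was over 0.71 of the group's range, which chance alone gives in about 1 of 20 groups. The cortical Shank3-HM sample 2 accounted for 4 of them, as the highest of its group for Gria1 (11294), Cacng4 (1327) and Cacng5 (417) and the lowest for Cacng2 (2232). Its striatal marker signal is given above, and the part of that signal in these values was not tested. The other 4 were single genes in different samples. Gria1 was at 30538 in Shank3-HT hippocampus sample 5, Gria4 at 1906 in Shank3-HM hippocampus sample 5, Cacng7 at 4403 in Shank3-HT hippocampus sample 3 and Cacng8 at 872 in Shank3-HT striatum sample 1. Hippocampal Shank3-HT sample 3 was the hippocampal sample with the most cortical marker signal, at 8.89% of the way to the WT cortex.

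For Nptx2, the effect of the homozygous mutation differed between regions by an interaction term, by 0.84 between striatum and cortex and by 0.89 between striatum and hippocampus. The first call was lost under quantile normalization and without any 1 of 11 samples, the second without any 1 of 8.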

How the results depend on the processing

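For the 10 genes, 1527 of 1530 refits of the genotype comparisons and all 1500 refits of the interactions kept their direction and remained without a call, where a difference that was smaller than its SE with all samples was given no direction. The lowest adjusted p value of any genotype refit was 0.211. The 3 changes of sign came without cortical Shank3-HM sample 2: with each sample left out in turn, Cacng4 in Shank3-HM against WT cortex ranged from -0.0090 to 0.27, Cacng5 in the same comparison from -0.053 to 0.41, and Cacng5 against Shank3-HT from -0.086 to 0.38. Without that sample, Cacng3 (-0.03 to 0.09) and Gria3 (-0.0094 to 0.055) in Shank3-HM against Shank3-HT cortex also changed sign, from differences smaller than their SE. Of 570 refits of the region differences, 565 kept their side of the threshold, and the only changes of sign were in differences smaller than their SE (Gria3 and Gria2 between striatum and hippocampus). Cacng3 between striatum and cortex was called with Shank3-HM in place of WT mice (adjusted p = 0.0102) and with WT samples alone (0.00363), and the Gria2 calls that changed are given above. With the replicate number as a block, 0 of the 90 genotype values were called (lowest adjusted p = 0.302), and no other call of the 10 genes changed. The numbers were not taken as pairs, since no label ties them and same-numbered samples of different genotypes in a region had correlations of deviations from group means of -0.21 to 0.32. Across regions, samples of the same genotype and number had a mean correlation of deviations of 0.13 (27 of 45 pairs over 0.1), against -0.03 (16 of 180) for other numbers, a hint from the data and not the design. The region and interaction fits treat the 45 samples as independent, and the block of genotype and number changed none of their calls of the 10 genes.

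The count of list genes called was 1 for Shank3-HM against Shank3-HT striatum and 0 to 1 with samples left out (Nptx2, adjusted p = 0.0607 without Shank3-HT striatum sample 5). For the interaction with the cortex it was 0 to 1, and 0 with quantile normalization. The call was lost without cortical Shank3-HM samples 2 or 4, cortical WT samples 3, 4 or 5, striatal Shank3-HM samples 1 or 5, or striatal WT samples 1, 2, 3 or 4. For the interaction with the hippocampus it was 0 to 1, and lost without hippocampal Shank3-HM sample 2, hippocampal WT samples 1, 2 or 3, striatal Shank3-HM samples 1 or 5, or striatal WT samples 1 or 2. The Gria shares moved with the length by its own construction. With mean transcript length, the shares in WT cortex, hippocampus and striatum were 23.8%, 50.8% and 35.0% for Gria1, 43.4%, 35.8% and 45.8% for Gria2, 25.8%, 11.4% and 15.3% for Gria3, and 7.01%, 2.03% and 3.83% for Gria4. With coding length they were 21.0%, 46.4% and 31.0% for Gria1, 47.4%, 40.5% and 50.5% for Gria2, 23.3%, 10.6% and 13.9% for Gria3, and 8.31%, 2.49% and 4.56% for Gria4. The unknown depth limits statements on Cacng5, which had the fewest counts and the widest intervals.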
